A study of Mus musculus with 42 samples.

Results

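Genes of the neurexin synaptic organiser system were described in mouse brain tissue, 8 in all: 2 neurexins (Nrxn2, Nrxn3), 2 neuroligins (Nlgn1, Nlgn3), 3 cerebellins (Cbln1, Cbln2, Cbln4) and the delta glutamate receptor gene Grid1. They were chosen by gene symbol, and all 8 were found in both deposited tables, of 37410 and 40905 genes. RNA with poly(A) tails was sequenced from 42 libraries of 6 brain regions in 14 groups of 3. In the lateral habenula (LHb) the groups were chronic restraint stress (CRS) with high immobility in the forced swim test (FST, above 110 s), CRS with low FST (50 to 110 s), naive with high FST (50 to 80 s) and naive with low FST (below 50 s). For 5 further regions there was a CRS and a naive group each, with no FST class in the labels. These were the lateral hypothalamus (LH), the medial prefrontal cortex (mPFC), the nucleus accumbens (NAc), the ventral hippocampus (vHippo) and the ventral tegmental area (VTA). All mice, naive ones included, had taken the swim test 2 days before sacrifice. The FST classes of CRS and naive mice were cut at different times, so high and low do not name the same immobility in both. Strain, sex and age are not given in the labels. Nothing in them ties a library to an animal or says whether regions share mice. P-values then measure only the spread between these libraries, which may be technical.

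Neurexins are presynaptic cell adhesion proteins that reach across the synaptic cleft. They bind neuroligins directly, and they bind secreted cerebellins, which in turn hold delta receptors on the postsynaptic side. These bridges are known for setting up and specifying excitatory and inhibitory synapses, and cerebellar Cbln1 is the classic case of a cerebellin in such a bridge. The habenula, a small nucleus that receives input from the basal ganglia and hypothalamus and projects to midbrain monoamine centres, is known as a site of cerebellin expression.

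The libraries held 56459734 to 79849567 counts in LHb, and 53143878 to 81384893 counts in the other regions. The lateral habenula marker list (5 genes, Gpr151 among them) summed to 281 to 357 FPKM (fragments per kilobase of transcript, scaled to library size) in LHb, against at most 109 FPKM in other libraries. Markers of the adjoining medial habenula (7 genes) were also high in LHb, at 612 to 840 FPKM, against at most 289 FPKM elsewhere. LHb levels below are those of the libraries so labelled, in which lateral and medial habenula tissue cannot be told apart. In 4 LHb libraries (CRS high FST 2 and 3, CRS low FST 2, naive high FST 3) a list of 14 pancreas genes summed to 440.5 to 621 FPKM, and in the other 8 to at most 0.646 FPKM. In CRS high FST 1, CRS low FST 1 and naive low FST 1, 7 choroid plexus genes summed to 2907 to 7073 FPKM, against 20.6 to 112 FPKM in the other 9. In the other regions 6 libraries were treated as standing apart from the rest of their region in marker sums. They were vHippo CRS 2, VTA naive 2, NAc naive 1, mPFC CRS 3, LH naive 1 and LH naive 2. The choice was made after seeing the data and is not complete. VTA CRS 3 was kept, with a dopamine neuron sum of 1381 FPKM against at most 514 FPKM in VTA naive libraries. The mPFC naive libraries were also kept, though their endothelial sums reached 52.1 FPKM, against at most 25.2 FPKM in mPFC CRS. For some results the value without the 6 is given beside the result, and a value without such a note may also change when they are removed. In RNA from whole tissue, fewer cells of a type and less RNA per cell cannot be told apart.

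The cerebellins and Nrxn3 had the widest range of levels across regions, and the neuroligins, Nrxn2 and Grid1 a narrow one. Between the regions of highest and lowest mean FPKM the ratio was 31.9 for Cbln2, 20.6 for Cbln1 and 10.8 for Cbln4. It was 6.20 for Nrxn3, 1.81 for Nlgn1, 1.79 for Nrxn2, 1.61 for Grid1 and 1.46 for Nlgn3. LHb had the highest mean of Cbln2, Cbln4 and Nrxn2 and the lowest mean of Nrxn3, while its mean of Nlgn3 was within 1.004 times that of vHippo. LHb levels come from a table that the authors normalised apart from the other regions, so LHb was set beside them as levels and not tested. Gene positions differ between the 2 tables as well, and Nrxn2 spans 125.4 kb in the LHb table and 114.5 kb in the other. The part of this in differences between LHb and other regions was not tested.

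**Figure D1:**
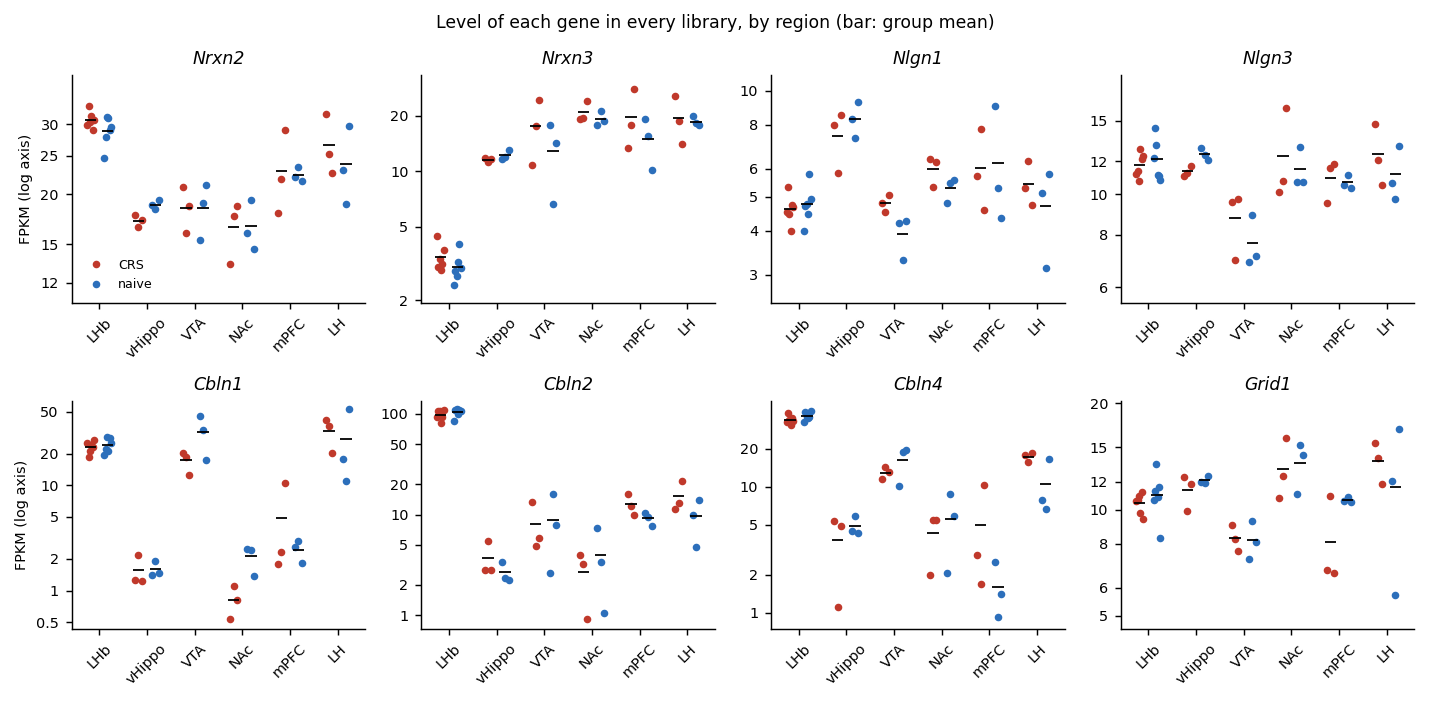
FPKM (log axis) of the 8 genes in each of the 42 libraries, by region, with CRS libraries in red left of naive libraries in blue and a bar at each group mean. Every LHb library lay above all libraries of other regions in Cbln2 and Cbln4 and below them in Nrxn3, and the CRS and naive points of most regions overlap.

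Nrxn3, a presynaptic neurexin whose gene spans 1610.6 kb (ENSMUSG00000066392, chr12:88722876-90333443, plus strand, GRCm38), was the gene that LHb had least of. Its lowest, median and highest LHb values were 2.43, 3.09 and 4.47 FPKM (mean 3.24 ± 0.58, SD, n = 12). In vHippo, the next lowest region, the values were 11.2, 11.7 and 13.1 FPKM (mean 11.9 ± 0.65, n = 6). No LHb library reached a library of another region, and the means of vHippo and LHb stood at a ratio of 3.66. The other means were 15.3 FPKM in VTA, 17.3 in mPFC, 19.1 in LH and 20.1 in NAc, and libraries of neighbours in that order overlapped.

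Neurexin genes have an upstream start, which makes the long alpha form, and a downstream start inside the gene, which makes the short beta form. The deposited values are 1 per gene and do not separate them. The windows around the most upstream and the most downstream Nrxn3 starts in the RefSeq promoter table (GRCm38.p6, plus strand, 250 bases before to 50 after the start) are shown because this gene divided LHb from every other region. Both lie inside the gene, downstream of its first base at 88722876, and which form each start makes was not determined.
Nrxn3 start at chr12:88794254-88794553: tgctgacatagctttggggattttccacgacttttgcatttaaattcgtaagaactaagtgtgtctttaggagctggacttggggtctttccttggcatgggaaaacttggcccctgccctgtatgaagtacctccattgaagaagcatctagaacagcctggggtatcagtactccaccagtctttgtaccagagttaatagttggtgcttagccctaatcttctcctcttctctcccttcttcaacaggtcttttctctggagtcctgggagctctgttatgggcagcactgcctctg
Nrxn3 start at chr12:89812233-89812532: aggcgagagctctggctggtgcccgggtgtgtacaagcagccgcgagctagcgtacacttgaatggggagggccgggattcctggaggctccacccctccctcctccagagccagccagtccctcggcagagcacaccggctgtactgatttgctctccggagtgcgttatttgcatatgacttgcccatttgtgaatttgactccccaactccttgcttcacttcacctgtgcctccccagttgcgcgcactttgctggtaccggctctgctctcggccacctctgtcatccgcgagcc
The upstream window holds 2 CpG dinucleotides and the downstream one 16, against a median of 7 over the 32851 windows of the table. Searched on both strands, the TATA box, spelled TATAAA, was in neither window and in 13.6% of all windows. The GC box, spelled GGGCGG, was in neither and in 35.7% of all. The E-box, spelled CACGTG, was in neither and in 7.15% of all. The cyclic AMP response element, spelled TGACGTCA, was in neither and in 1.79% of all. A further Nrxn3 window of the promoter table, at chr12:88953140-88953439 between these, held 6 CpG dinucleotides and 1 GC box match and is not shown. Of the 8 genes, Nrxn3, Nlgn1 and Cbln4 were matched in the promoter table.

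Nrxn2, the second neurexin here (ENSMUSG00000033768, chr19:6418731-6533217, plus strand), was highest in LHb at 29.8 ± 2.15 FPKM (SD, n = 12). LH followed at 25.2 ± 4.79, mPFC at 22.7 ± 3.62, VTA at 18.5 ± 2.40, vHippo at 17.99 ± 1.01 and NAc at 16.6 ± 2.36 FPKM (n = 6 each). Libraries of every neighbouring pair in that order overlapped.

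Cbln2, a secreted cerebellin (ENSMUSG00000024647, chr18:86711110-86718283, plus strand), had the highest level of the 8 genes in LHb, though not in the other regions. In LHb it was at 92.5, 108 and 106 FPKM in CRS high FST, 81.0, 93.7 and 108 in CRS low FST, 98.9, 110.3 and 108 in naive high FST, and 85.5, 109 and 113 in naive low FST. The LHb mean of 101 ± 10.6 FPKM (n = 12) was 8.17 times that of LH, the next region, at 12.4 ± 5.46 FPKM (n = 6). The lowest LHb library, at 81.0 FPKM, stood above the highest library of any other region, LH CRS 3 at 21.4 FPKM. Below LHb the order was LH, mPFC (10.98 FPKM), VTA (8.42), NAc (3.31) and vHippo (3.17), and neighbours in it overlapped.

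Cbln4, another secreted cerebellin (ENSMUSG00000067578, chr2:172036233-172043466, minus strand), was also highest in LHb. Its lowest, median and highest LHb values were 30.9, 35.1 and 40.2 FPKM, and the mean of 35.3 ± 2.85 was 2.42 times that of VTA. VTA had 10.1, 13.7 and 19.5 FPKM and LH 6.72, 16.2 and 18.5 FPKM, so VTA and LH overlapped and LHb stood clear of both. NAc averaged 4.94 ± 2.57, vHippo 4.34 ± 1.69 and mPFC 3.28 ± 3.51 FPKM.

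The window at the Cbln4 start (RefSeq, GRCm38.p6, minus strand, written 5′ to 3′ of the gene) is shown as that of a gene whose LHb libraries did not overlap those of other regions. Capitals mark the 2 GC box matches, which share 1 base and lie on the opposite strand.
Cbln4 start at chr2:172043417-172043716: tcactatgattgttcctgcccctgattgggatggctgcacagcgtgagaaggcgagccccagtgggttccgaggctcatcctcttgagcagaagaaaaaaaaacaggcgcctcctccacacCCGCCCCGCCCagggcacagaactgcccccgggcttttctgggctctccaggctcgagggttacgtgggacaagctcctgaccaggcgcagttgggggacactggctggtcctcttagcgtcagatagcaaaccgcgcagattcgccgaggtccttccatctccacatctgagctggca
It holds 15 CpG dinucleotides, more than the median of 7, and no TATA box, E-box or cyclic AMP response element match.

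Cbln1, the cerebellin of the cerebellar synapse (ENSMUSG00000031654, chr8:87468405-87472609, minus strand), had a different order. LH was at 11.1, 28.6 and 52.9 FPKM (lowest, median, highest), VTA at 12.6, 19.5 and 46.01, and LHb at 18.5, 23.6 and 29.0 FPKM. These 3 regions overlapped, at means of 30.1, 24.7 and 23.7 FPKM. The other 3 lay far below, at 3.68 ± 3.40 FPKM in mPFC, 1.57 ± 0.38 in vHippo and 1.46 ± 0.83 in NAc. The mPFC mean was carried by CRS 3, at 10.6 FPKM, while the other 5 mPFC libraries had 1.80 to 2.94 FPKM.

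The summed cerebellins, with Cbln3 (0.197 FPKM in LHb), reached 160 ± 14.1 FPKM in LHb. The sums were 56.5 ± 23.0 in LH, 47.9 ± 13.6 in VTA, 18.1 ± 7.11 in mPFC, 9.78 ± 3.15 in NAc and 9.24 ± 0.74 FPKM in vHippo. Cbln2 made up 63.0% ± 1.75 of the sum in LHb and 65.1% ± 16.6 in mPFC. Cbln1 was the largest member in LH (51.7% ± 10.4) and VTA (49.9% ± 14.4), and Cbln4 in NAc (51.4% ± 22.7) and vHippo (46.6% ± 17.1). The spread of the share over LHb libraries was the smallest for Cbln2 among the 6 regions, from 59.5% to 65.7%.

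**Figure D2:**
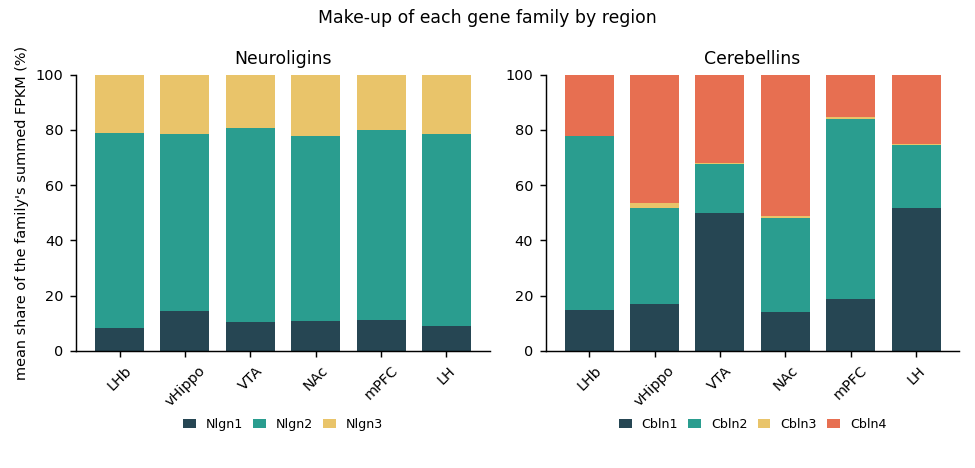
Mean share (%) of each gene in the summed FPKM of its family, by region, for neuroligins and cerebellins (n = 12 libraries in LHb, 6 in each other region). The neuroligin bars are nearly alike, with Nlgn2 at 64.1% to 70.5%, and the largest cerebellin changes between regions, from Cbln2 at 63.0% in LHb to Cbln1 at 51.7% in LH.

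On the postsynaptic side, Nlgn1, a neuroligin of excitatory synapses (ENSMUSG00000063887, chr3:25426215-26332460, minus strand), was highest in vHippo at 7.88 ± 1.18 FPKM. It followed at 6.12 ± 1.88 in mPFC, 5.64 ± 0.61 in NAc, 5.07 ± 1.1 in LH, 4.70 ± 0.51 in LHb and 4.36 ± 0.61 FPKM in VTA. Nlgn3, a neuroligin found at excitatory and inhibitory synapses (ENSMUSG00000031302, chrX:101299168-101325963, plus strand), was at 11.9 ± 1.1 FPKM in LHb, and at 10.8 to 11.9 in vHippo, NAc, LH and mPFC. Only VTA was lower, at 8.20 ± 1.36 FPKM. Neighbouring regions overlapped for both genes.

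Nlgn2, the neuroligin of inhibitory synapses, which is not among the 8, took most of the family in all 6 regions, at means of 64.1% (vHippo) to 70.5% (LHb) of the summed neuroligins. Nlgn3 took 19.5% (VTA) to 22.3% (NAc), and Nlgn1 took 8.38% (LHb) to 14.3% (vHippo). Mean shares of the neuroligins lay within a few percentage points of each other across regions, where those of the cerebellins changed their order.

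Grid1, the delta receptor that binds cerebellins outside the cerebellum (ENSMUSG00000041078, chr14:34820108-35583379, plus strand), ran from 8.26 ± 0.78 FPKM in VTA to 13.3 ± 2.17 FPKM in NAc. LH was at 12.7 ± 3.92, vHippo at 11.7 ± 0.94, LHb at 10.7 ± 1.25 and mPFC at 9.37 ± 2.10 FPKM. Its order did not follow that of any cerebellin: NAc and vHippo had high Grid1 and the least cerebellin, and LHb had the most cerebellin and a middle level of Grid1.

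Among the 5 regions of the shared table, each region was tested against the mean of the other 4 over 30 libraries, with edgeR's quasi-likelihood test and Benjamini-Hochberg adjustment over 24244 genes. A gene was called at an adjusted p below 0.05. VTA had the most calls: 5 of the 8 genes were called (2 higher, 3 lower), where 32.4% of all genes were called. In vHippo 4 were called (1 higher, 3 lower; 21.1% of all genes), in LH 4 (all higher; 21% of all genes), in NAc 3 (all lower; 22%) and in mPFC 3 (2 higher, 1 lower; 24%). These shares are high, so the counts alone say little about the 8 genes, and the sizes of the differences are given.

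The calls of VTA and LH were led by cerebellins. Cbln1 was higher in VTA by a log2 fold difference of 2.61 ± 0.26 (SE; adjusted p = 4.67e-08) and in LH by 2.98 ± 0.26 (adjusted p = 2.23e-08). Cbln4 was higher in VTA by 1.43 ± 0.29 (adjusted p = 0.000453) and in LH by 1.24 ± 0.30 (adjusted p = 0.0036). Cbln2 was higher in LH by 1.05 ± 0.31 (adjusted p = 0.0172) and in mPFC by 1.02 ± 0.31 (adjusted p = 0.0182).

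The same genes were low in the other regions. Cbln1 was lower in NAc by −2.57 ± 0.37 (adjusted p = 1.13e-05) and in vHippo by −2.25 ± 0.36 (adjusted p = 4.53e-05). Cbln2 was lower in vHippo (−1.29 ± 0.37, adjusted p = 0.0119) and NAc (−1.21 ± 0.36, adjusted p = 0.0183). Cbln4 was lower in mPFC (−1.46 ± 0.36, adjusted p = 0.00365).

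Differences of the neurexins, neuroligins and Grid1 were smaller. Nlgn1 was higher in vHippo (0.61 ± 0.13, adjusted p = 0.00138) and lower in VTA (−0.50 ± 0.14, adjusted p = 0.00785). Nlgn3 (−0.52 ± 0.10, adjusted p = 0.000281) and Grid1 (−0.51 ± 0.15, adjusted p = 0.00866) were also lower in VTA. Nrxn2 was higher in LH (0.34 ± 0.10, adjusted p = 0.0153) and mPFC (0.30 ± 0.10, adjusted p = 0.0311) and lower in NAc (−0.32 ± 0.10, adjusted p = 0.0309). Nrxn3 was lower in vHippo (−0.57 ± 0.19, adjusted p = 0.0311). Of these 19 calls, 8 held under each alternative run, and each of the 8 was of Cbln1, Cbln4, Nlgn1 in vHippo or Nlgn3 in VTA. Without mPFC CRS 3 and the other 5 libraries that stood apart, Cbln1 was also called lower in mPFC (−1.44, adjusted p = 0.000191, against −0.78, adjusted p = 0.083 with them), and Nrxn2 in mPFC was no longer called (0.16, adjusted p = 0.321). Grid1 was then called higher in LH (0.44, adjusted p = 0.0132, against 0.19, adjusted p = 0.378 with them) and in NAc (0.32, adjusted p = 0.0257, against 0.38, adjusted p = 0.0539 with them). Some called differences grew, such as Cbln1 (3.67, against 2.98) and Cbln2 (1.56, against 1.05) in LH and Cbln4 in mPFC (−2.17, against −1.46). Others shrank, such as Cbln4 in VTA (1.32, against 1.43).

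**Figure D3:**
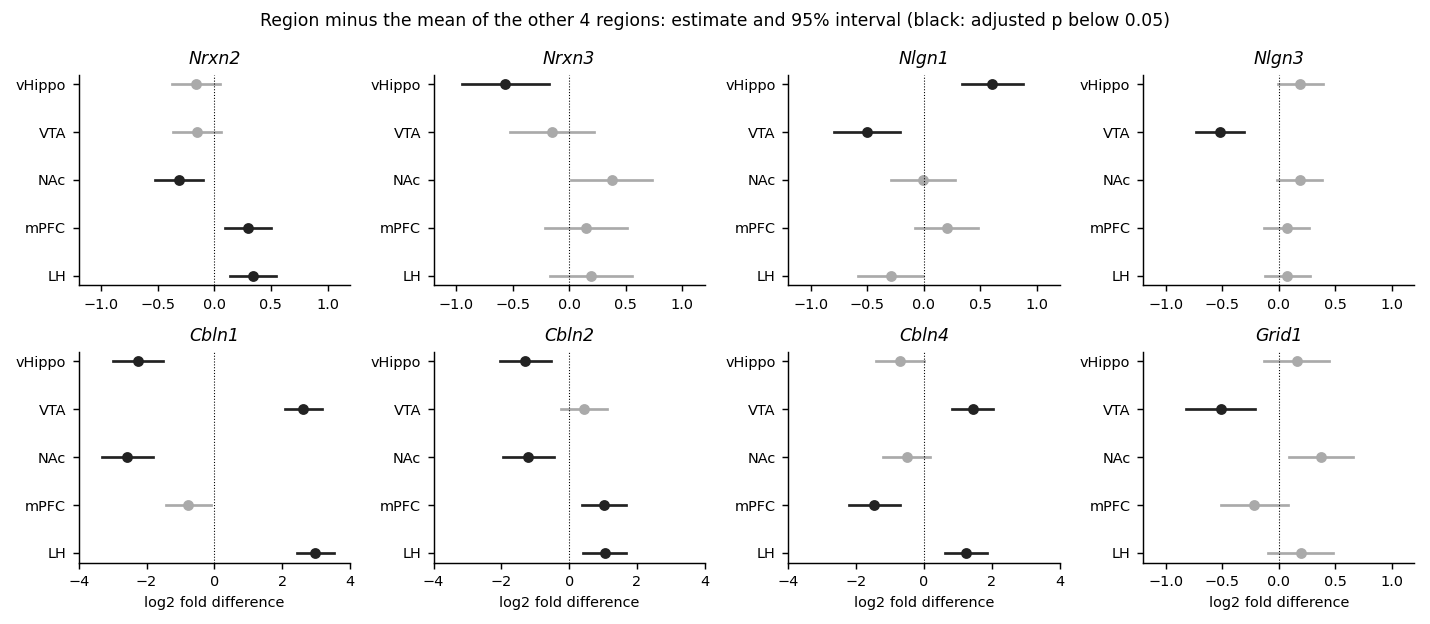
Log2 fold difference (x axis) of each region from the mean of the other 4 for each of the 8 genes, with the 95% interval of the fit, black where the adjusted p was below 0.05 and grey otherwise. The x axes of the cerebellin panels are wider than those of the others, and the black points of Cbln1 lie on both sides of 0.

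Stress was compared in LHb first, over 12 libraries, as CRS (6 libraries of both FST classes) against naive (6). None of the 8 genes was called, where 1.17% of all 23266 genes were. None had an unadjusted p below 0.05 either, and DESeq2 and limma called none. Cbln4 had the smallest p of the 8 (0.135, adjusted p = 0.554 with edgeR), with a mean of 34.1 ± 2.53 FPKM in the 6 CRS libraries and of 36.5 ± 2.79 FPKM in the 6 naive libraries. Cbln2 averaged 98.2 FPKM over the CRS libraries (SD 10.98) and 104 FPKM over the naive ones (SD 10.3), a log2 fold change of −0.10 with a 95% interval of −0.29 to 0.10. The intervals of the 8 genes lay between −0.33 and 0.42, the widest being those of Cbln1 and Nrxn3, so changes beyond these sizes lie outside the intervals of this fit. The median log2 fold change of the 8 was −0.07, against 0.00 over all genes tested (−0.004341).

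Within naive mice, high FST was set against low FST. None of the 8 was called, where 3.07% of all genes were, and DESeq2 and limma called none. Nlgn3 came nearest, at 11.1, 11.1 and 10.8 FPKM in naive high FST, against 12.2, 14.4 and 13.1 FPKM in naive low FST. All 3 high FST libraries lay below the 3 low FST libraries (log2 fold change −0.22 ± 0.07, unadjusted p = 0.0104, adjusted p = 0.143). Marker sums of other cell types were also without overlap here, with none of their genes at 0. The 5 endothelial markers summed to 18.4 to 19.99 FPKM in naive high FST and 26.3 to 39.3 FPKM in naive low FST. The 5 microglial markers summed to 32.5 to 36.7 FPKM in naive high FST and 39.0 to 45.5 FPKM in naive low FST, and the 7 choroid plexus genes to 48.8 to 59.3 and 87.7 to 7073 FPKM. The share of counts from mitochondrial genes was 7.13% to 7.43% in naive low FST, above the other LHb libraries (5.25% to 6.96%). Genes with a count numbered 25992 to 27339 in naive low FST and 27677 to 28026 in naive high FST, also without overlap. The part of these sums and library measures in the values of the 8 genes was not tested. Nrxn3 was at 3.23, 4.03 and 2.99 FPKM in naive high FST, against 2.43, 2.87 and 2.70 FPKM in naive low FST, and these groups did not overlap either (0.41 ± 0.16, unadjusted p = 0.0238, adjusted p = 0.211). Groups without overlap were common: 21.5% of all genes had none in this comparison, and 2 of the 8 genes. Over the alternatives run, the log2 fold change ran from −0.28 to −0.14 for Nlgn3 (smallest adjusted p = 0.0825) and from 0.25 to 0.50 for Nrxn3 (smallest adjusted p = 0.111). Without the 4 libraries with pancreas transcripts, or without the 3 with choroid plexus transcripts, none of the 8 genes was called in any LHb comparison.

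Within CRS mice, high FST against low FST gave 0 called among the 8 with edgeR, and none at an unadjusted p below 0.05, DESeq2 and limma also calling none. Over all genes the edgeR share was 0 percent, with 494 genes at an unadjusted p below 0.05 and 2 called by DESeq2. Nlgn3 was at 11.2, 11.4 and 10.8 FPKM in CRS high FST and 12.8, 12.1 and 12.4 FPKM in CRS low FST. The groups did not overlap, which held for 7.81% of all genes, and the log2 fold change of −0.15 had an interval of −0.31 to 0.01 (adjusted p = 1). The 9 thalamus markers summed to 48.95 to 52.7 FPKM in CRS high FST and 55.3 to 58.2 FPKM in CRS low FST, with none at 0, and their part in the values was not tested. The difference between the FST effect in CRS and that in naive mice was 0.07 ± 0.10 for Nlgn3 (adjusted p = 0.964). It was called for none of the 8, where 0.202% of all genes were called.

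**Figure D4:**
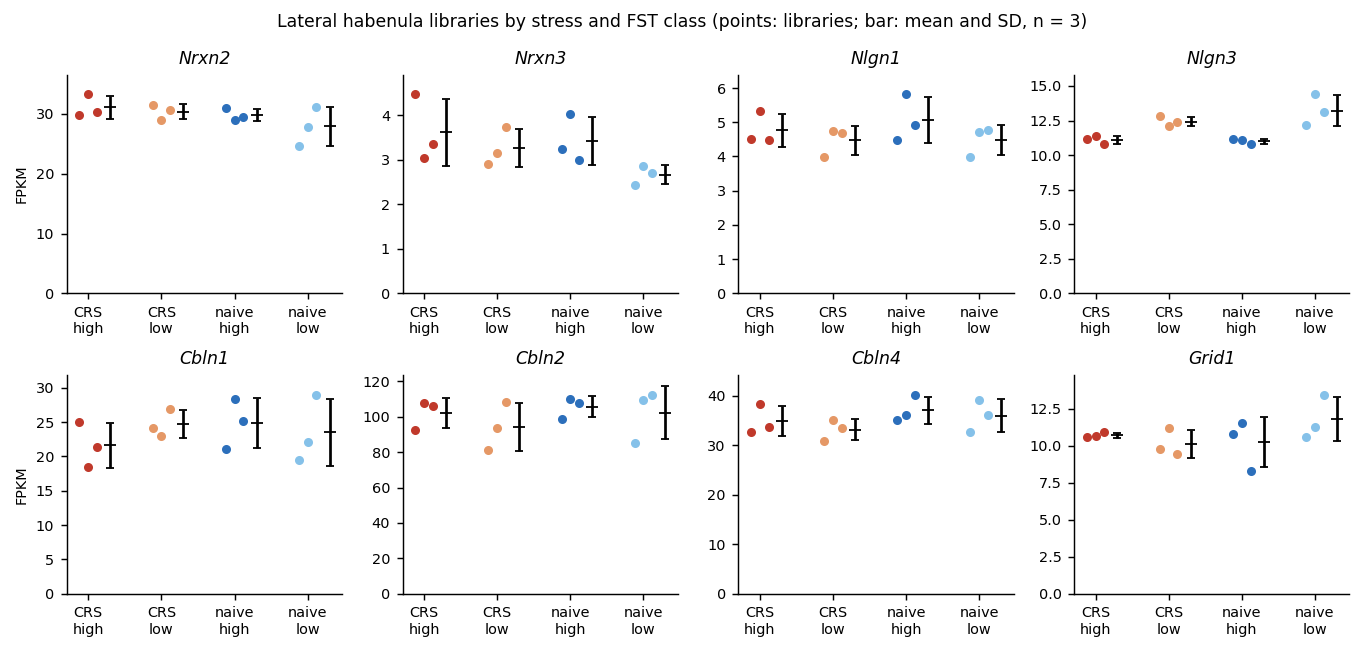
FPKM of the 8 genes in the 12 LHb libraries, in the order CRS high FST, CRS low FST, naive high FST and naive low FST, with the mean and SD of 3 libraries beside each group and the axis starting at 0. Nlgn3 averages 11.1 and 11 FPKM in the high FST groups of CRS and naive mice, and 12.4 and 13.2 FPKM in the low FST groups, and Nrxn3 is lowest in the naive low FST group, at 2.67 FPKM.

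Crossed pairs of the 4 groups called none of the 8 genes either. CRS high FST against naive low FST had 3.67% of all genes called, and Nlgn3 (−0.23 ± 0.07, unadjusted p = 0.00776, adjusted p = 0.121) and Nrxn3 (0.45 ± 0.16, unadjusted p = 0.0135, adjusted p = 0.164) were again nearest. Both had groups without overlap there, as had 23.9% of all genes. The endothelial sum was at 19.4 to 25.5 FPKM in CRS high FST and 26.3 to 39.3 FPKM in naive low FST, and the oligodendrocyte sum at 918 to 1109 and 1136 to 1242 FPKM, with none of these genes at 0. The pancreas sum, at 0.646 to 571 FPKM in CRS high FST and 0.0686 to 0.446 FPKM in naive low FST, did not overlap either. Without the 4 libraries with pancreas transcripts, 57 of all genes were called here, against 854 with them. The mitochondrial share of counts was 6.14% to 6.32% in CRS high FST and 7.13% to 7.43% in naive low FST. The part of these lists and of this share was not tested. This comparison and the one within naive mice share the naive low FST libraries. CRS low FST against naive low FST had 2.19% of all genes called, and the smallest adjusted p of the 8 was 0.537, for Nrxn3. CRS high FST against naive high FST and CRS low FST against naive high FST had 0 percent of all genes called, with 1277 and 1785 genes at an unadjusted p below 0.05 and 22 and 43 called by DESeq2. Across the 4 groups Nrxn3 averaged 3.62 ± 0.75, 3.27 ± 0.43 and 3.42 ± 0.54 FPKM in CRS high, CRS low and naive high FST, and 2.67 ± 0.22 FPKM in naive low FST.

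In the other 5 regions CRS was compared with naive over 3 libraries each. With edgeR no gene of the 8 was called in vHippo, VTA, NAc, mPFC or LH, and 0 percent of all genes were called in each region. Cbln1 in NAc and VTA and Cbln4 in mPFC had unadjusted p-values below 0.05. At that level 1330, 325, 442, 314 and 1896 of all genes passed in vHippo, VTA, NAc, mPFC and LH, and DESeq2 called 34, 12, 2, 36 and 342, none of them among the 8.

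NAc held the clearest separation of CRS and naive libraries. Cbln1 was at 0.541, 1.09 and 0.809 FPKM in NAc CRS libraries, against 2.50, 2.45 and 1.39 FPKM in NAc naive libraries. Every CRS library was below every naive library, the log2 fold change was −1.35 ± 0.34 (95% interval −2.14 to −0.55), and the adjusted p was 1 (unadjusted p = 0.00448). Groups did not overlap for 6.39% of all genes in NAc. The sum of the 5 endothelial markers moved beside it, at 13.8, 14.1 and 16.0 FPKM in CRS libraries and 21.6, 18.9 and 19.4 FPKM in naive libraries, with none at 0 and no overlap. Its part in the result was not tested. Other sums overlapped: the 7 striatal projection neuron markers summed to 834 to 1527 FPKM in CRS and 714 to 1139 FPKM in naive libraries, with none at 0, and the 6 pyramidal neuron markers to 3.10 to 99.2 FPKM in CRS and 2.56 to 259 FPKM in naive libraries. Without NAc naive 1, whose pyramidal sum was 259 FPKM, the Cbln1 fold change was −1.15 (unadjusted p = 0.0149, adjusted p = 0.812).

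Cbln1 in VTA was at 20.4, 18.7 and 12.6 FPKM in CRS libraries, against 46.01, 33.4 and 17.4 FPKM in naive libraries. The groups overlapped, since naive 3 lay below CRS 1 and 2 (−0.96 ± 0.36, unadjusted p = 0.031, adjusted p = 1). The 5 dopamine neuron markers summed to 344, 335 and 1381 FPKM in these CRS libraries and to 514, 32.4 and 263 FPKM in the naive ones, with none at 0. The 5 endothelial markers summed to 16.6, 14.2 and 13.6 FPKM in the CRS libraries and to 18.8, 21.9 and 20.6 FPKM in the naive ones, without overlap. The part of either list in the result was not tested. The Cbln1 fold change was −0.56 without VTA naive 1, the library highest in Cbln1, −0.96 without naive 2 and −1.27 without naive 3.

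In mPFC, Cbln4 was at 2.89, 1.68 and 10.3 FPKM in CRS libraries, against 2.50, 0.929 and 1.40 FPKM in naive libraries. The high value was that of CRS 3, and the other libraries overlapped (1.59 ± 0.65, unadjusted p = 0.0397, adjusted p = 1). In CRS 3 the pyramidal neuron sum was 150 FPKM, against 276 to 399 in the other 5 mPFC libraries, and the medial habenula list, which holds 7 genes, was at 198 FPKM against 24.7 to 31.7. The dopamine neuron list was at 47.5 FPKM in CRS 3, with 1 of 5 genes at 0, against 2.34 to 8.18 in the others. The 7 striatal markers summed to 57.3 to 89.96 FPKM in CRS and 35.1 to 51.6 FPKM in naive libraries, without overlap and with none at 0. The thalamus sum (15.2 to 21.3 FPKM in CRS, 23.4 to 26.7 FPKM in naive libraries) did not overlap either. Nor did the lateral hypothalamus sum (2.01 to 4.22 FPKM in CRS, 1.23 to 1.94 FPKM in naive libraries), and the part of these lists in the result was not tested. Without CRS 3 the Cbln4 fold change was 0.54 (unadjusted p = 0.271, adjusted p = 0.994), and that of Cbln1 was −0.28, against 0.92 with it.

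The naive libraries of LH varied widely in Cbln4 and Cbln1. Cbln4 was at 17.98, 15.7 and 18.5 FPKM in LH CRS libraries, against 7.86, 6.72 and 16.7 FPKM in LH naive libraries. Naive 3 lay within the CRS range and naive 1 and 2 below it (0.65 ± 0.33, adjusted p = 0.581). Naive 1 and 2 were also the libraries with 9 thalamus markers at 111 and 133 FPKM, against 18.9 to 25.1 in the other 4, and oligodendrocyte markers at 2029 and 2167 FPKM against 632 to 933. The sum of the 7 pan-neuronal markers was at 574.5 to 632 FPKM in CRS and 636 to 756 FPKM in naive libraries, with none at 0. It did not overlap, nor did those of oligodendrocytes, their precursors, microglia, leptomeninges, choroid plexus and dopamine neurons. The mitochondrial share of counts was 7.585% to 8.47% in CRS and 8.75% to 10.55% in naive libraries, also without overlap. The part of these lists and of this share was not tested. Without naive 3 the Cbln4 difference was called (1.18, adjusted p = 0.0152), and without naive 1 and 2, which left naive 3 alone, it was −0.019. Cbln1 ran from 20.2 to 41.7 FPKM in CRS and from 11.1 to 52.9 FPKM in naive libraries of LH. Its log2 fold change was 0.19 with all 6 libraries, −0.75 without naive 1 and 2 and 1.12 without naive 3, so its sign rests on these libraries.

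In vHippo, 7 of the 8 fold changes were negative, with a median of −0.12 against 0.00 over all genes (−0.001943), and 1 was positive. Without CRS 2, which stood apart, 4 were negative and 4 positive. Nlgn3 was at 11.1, 11.3 and 11.7 FPKM in vHippo CRS libraries, against 12.9, 12.4 and 12.1 FPKM in vHippo naive libraries. Nrxn2 was at 17.7, 16.6 and 17.3 FPKM in CRS, against 18.8, 18.3 and 19.3 FPKM in naive libraries. Neither gene's groups overlapped, as for 14.1% of all genes in vHippo, and the adjusted p-values were 0.75 and 0.758. In CRS 2, Cbln4 was at 1.1 FPKM and the 6 oligodendrocyte markers summed to 1171 FPKM, against 203 to 612 in the other 5 libraries. The endothelial sum (16.7 to 17.3 FPKM in CRS, 15.2 to 16.2 FPKM in naive libraries) did not overlap, with none at 0. Nor did the medial habenula sum (23.8 to 50.0 FPKM in CRS, 58.0 to 65.6 FPKM in naive libraries), with none at 0. The mitochondrial share of counts was 9.03% to 9.75% in CRS and 8.20% to 8.41% in naive libraries, also without overlap. The part of these sums and of this share in the values was not tested. In VTA, Nlgn1 had no overlap (4.798, 4.51 and 5.06 FPKM in CRS, against 4.21, 3.30 and 4.26 FPKM in naive libraries; adjusted p = 1), where 6.69% of all genes had none. No group separated for any of the 8 in mPFC and LH, where 5.26% and 15.8% of all genes did. Over the 5 regions that made 4 of 40 pairs of gene and region.

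**Figure D5:**
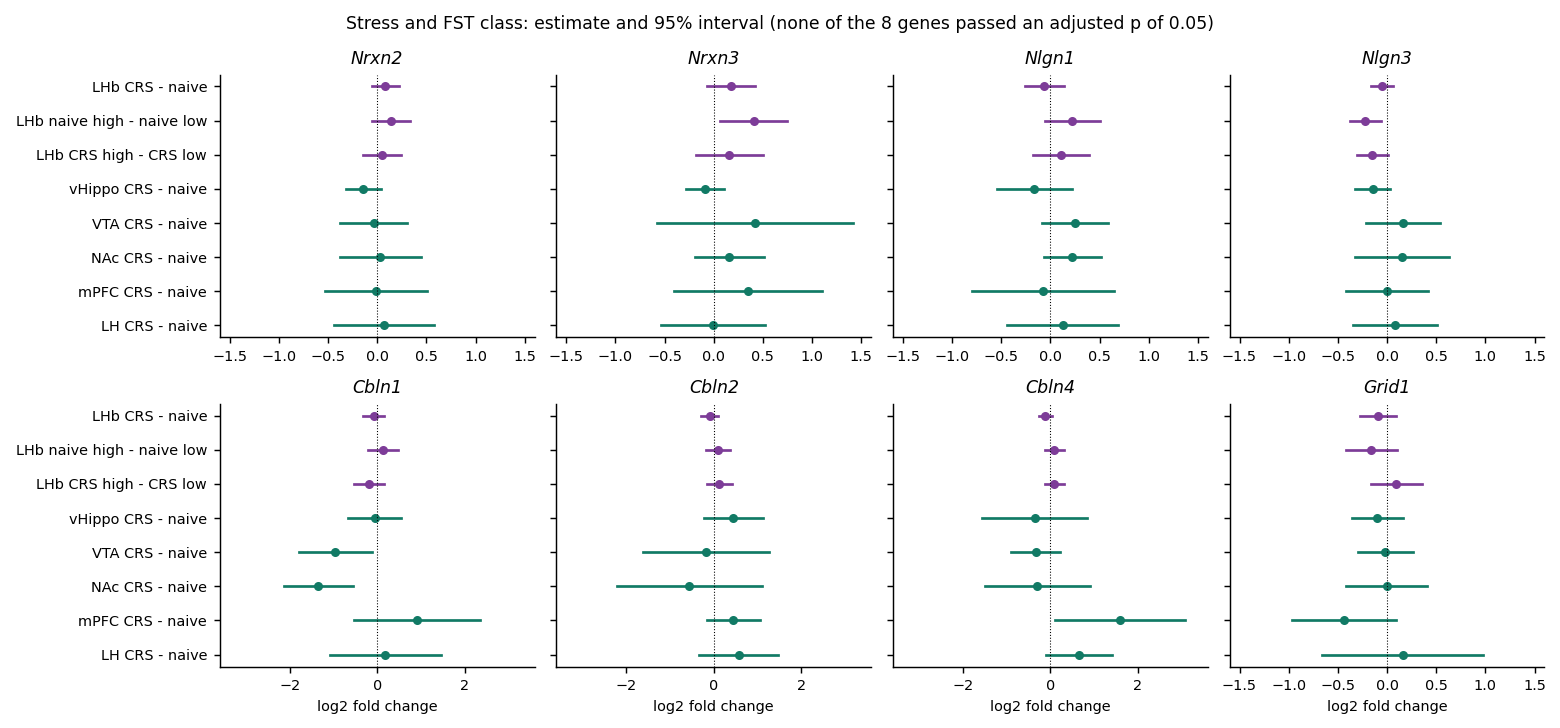
Log2 fold change (x axis) with the 95% interval of the fit for the 8 genes, CRS minus naive in LHb and the 5 other regions and high minus low FST within naive and within CRS mice of LHb. LHb intervals (purple) include 0, except in naive high minus low FST those of Nlgn3 (−0.38 to −0.06) and Nrxn3 (0.06 to 0.75). Intervals of the other regions (green) are wider for the cerebellins, while for Nrxn3 that of vHippo (−0.29 to 0.10) is shorter than those of LHb. Of the cerebellins, Cbln1 in NAc and VTA lies below 0 and Cbln4 in mPFC above it, with no adjusted p below 0.05.

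A single fit of 30 libraries asked whether the CRS effect differed by region. None of the 8 genes was called by edgeR, none had an unadjusted p below 0.05, and DESeq2 and limma called none. Over all genes 0 percent were called, with 1074 at an unadjusted p below 0.05 and 33 by DESeq2. The smallest p of the 8 was that of Cbln1 (0.0578, adjusted p = 1), whose fold changes were −1.35 in NAc, −0.96 in VTA, −0.06 in vHippo, 0.19 in LH and 0.92 in mPFC. Without the 6 libraries that stood apart, chosen after seeing the data, they were −1.15, −0.96, −0.34, −0.75 and −0.28 in the same order of regions. All were negative, but that of LH set the CRS libraries against naive 3 alone. That library, at 52.9 FPKM, had the highest Cbln1 of the LH libraries, and without it the LH fold change was 1.12. The mean CRS effect over the 5 regions was called for none of the 8, where 0.0206% of all genes were called, and the fold changes ran from −0.24 (Cbln1) to 0.23 (Cbln4). Without the libraries that stood apart, which left naive 3 as the only LH naive library, that of Cbln1 was −0.69 and that of Cbln4 −0.069.

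The other genes of the pathway were counted from lists. Among 28 other neurexin ligands and partners, naive high FST had 2 higher than naive low FST and none lower, where 3.07% of all genes were called. They were Lin7a, a scaffold that joins Cask (0.56 ± 0.12, adjusted p = 0.0224), and Adgrl3, a latrophilin receptor (0.58 ± 0.14, adjusted p = 0.0448). The list median was 0.12, against −0.02 over all genes. In CRS high FST against naive low FST the same 2 and Cask, the kinase-like scaffold that binds neurexin tails (0.42 ± 0.09, adjusted p = 0.019), were higher, and none was lower, where 3.67% of all genes were called. In CRS low FST against naive low FST, Lin7a was higher (0.60 ± 0.12, adjusted p = 0.0171), where 2.19% of all genes were called.

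Among 40 other trans-synaptic organisers, naive high FST had 2 higher than naive low FST (3.07% of all genes called). They were the teneurin gene Tenm3 (0.82 ± 0.09, adjusted p = 0.000734) and Ptprd, a receptor phosphatase (0.75 ± 0.16, adjusted p = 0.024). Tenm3 was the only one of the 40 called for CRS against naive in LHb (0.61 ± 0.06, adjusted p = 0.00137), where 1.17% of all genes were. In CRS high FST against naive low FST the same 2 were higher (3.67% of all genes called), and in CRS low FST against naive low FST Tenm3 was (0.94 ± 0.09, adjusted p = 0.000276; 2.19% of all genes called). Of 19 postsynaptic scaffolds, Dlg2, a relative of the scaffold Dlg4, was higher in naive high than in naive low FST (0.42 ± 0.09, adjusted p = 0.0256), and Dlg2 and Homer2 were higher in CRS high than in naive low FST (0.43 ± 0.09, adjusted p = 0.0194, and 0.71 ± 0.15, adjusted p = 0.0232). These comparisons share the naive low FST libraries. Calls of the listed genes come from the main fit and were not followed under the alternatives. Without the 4 libraries with pancreas transcripts, calls over all genes fell from 854 to 57 in CRS high against naive low FST. They fell from 510 to 107 in CRS low against naive low FST, and from 273 to 2 for CRS against naive. No member of these lists was called for CRS against naive in the 5 other regions, within CRS mice by FST class, or for either CRS group against naive high FST.

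Between regions many members of these lists were called. In VTA 16 of 19 postsynaptic scaffolds were called (1 higher, 15 lower; median −1.01, against 0.00 over all genes, of which 32.4% were called), and 28 of 40 trans-synaptic organisers (4 higher, 24 lower; median −0.59). In mPFC 14 scaffolds were called (13 higher, 1 lower; median 0.63; 24% of all genes called), and in LH 15 (1 higher, 14 lower; median −0.50; 21%). In vHippo 16 were called (14 higher, 2 lower; median 0.45; 21.1%), and in NAc 15 (11 higher, 4 lower; median 0.31; 22%). Of the 28 neurexin ligands and partners, 17 were called in VTA (6 higher, 11 lower; median −0.15) and 15 in mPFC (12 higher, 3 lower; median 0.21).

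For each of the 8 genes the 3 genes with the most similar pattern were found by Pearson's r of log2(FPKM + 1) over the 30 libraries of the 5 regions, among 12083 genes with a mean of at least 1 FPKM. Libraries of a region share its cell make-up, so r describes these libraries. Cbln1 was nearest to Asb16 (r = 0.942), Slc17a6, a vesicular glutamate transporter of subcortical neurons (0.934), and Slc41a3 (0.932). Cbln4 was nearest to Calb2, the calcium-binding protein calretinin and one of the medial habenula markers (0.918), Tmem255a (0.912) and Lrig1 (0.906). Cbln2 was nearest to Camk1 (0.85), the histamine receptor gene Hrh1 (0.831) and Tmem97 (0.83).

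Of the neurexins, Nrxn2 was nearest to Atn1 (0.845), the acid-sensing channel gene Asic2 (0.792) and Ap3d1 (0.789). Nrxn3 was nearest to the kinase gene Gsk3b (0.799), Tln2 (0.707) and Rubcn (0.685), the lowest values of the 8. Nlgn1 was nearest to the kinase gene Jak1 (0.878), Vps26b (0.873) and Slitrk5, a trans-synaptic adhesion gene (0.86). Nlgn3 was nearest to the splicing factor gene Sf3b3 (0.918), Tmem201 (0.911) and Zer1 (0.872), and Grid1 to Snd1 (0.854), the adenylate cyclase gene Adcy3 (0.832) and Atp8a1 (0.831).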

How the data were processed

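Each deposited table gives read counts (whole numbers) and FPKM for every gene, per the file headers; 12 LHb libraries are in one table and 30 libraries of 5 regions in another, and the FPKM values were scaled by the authors. The submitters' processing notes name cutadapt 1.9, HISAT2 2.0.4, StringTie 1.3.4d, edgeR and GRCm39. Gene starts of the 5-region table are GRCm38 positions, and those coordinates are printed. How reads were counted, and whether strand was used, is not given in the sources used here, so reads of overlapping or antisense genes may be mixed. A further 18 count columns matched no sample and were not used. Each FPKM column correlated best with the counts of its own library.

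Some related genes are not reported here. The 8 genes, the related lists and the tests were chosen with earlier results of these data known. The quasi-likelihood test of edgeR 4.0.16 (R 4.3.3) was run on the deposited counts, with genes of low counts removed by filterByExpr and library sizes scaled by TMM. It is two-sided, and p-values were adjusted by Benjamini-Hochberg over the genes tested, with a threshold of 0.05. LHb libraries went into 1 fit with 4 group means, each other region into its own fit, and region comparisons into 1 fit of 30 libraries. Levels are means ± SD of FPKM, and fold changes are log2 with the standard error (SE) of the fit. The fits were tested on simulated data. Named beyond the 8 genes were, for each, the 3 most similar genes and, from each list, up to 4 called members of smallest p. DESeq2 1.42.0, limma 3.58.1 on log2(FPKM + 1), RLE factors, no filter on low counts, an offset for length and GC content, other sets of libraries and leaving out libraries were tried. Leaving out the 6 libraries that stood apart, and leaving out each replicate number from the fits of 30 libraries, were chosen after seeing the data. Library pairs of a group all differed beyond sampling noise, with chi-square values per degree of freedom of 22.3 to 386 for 42 pairs. Counting error is small at these depths, and the 3 libraries per group limit the precision.

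Same-numbered libraries were checked for pairing by the correlation of their deviations from group means. It ran from 0.101 to 0.320 over the 3 pairs of mPFC, above 0.1 in each, and fell to or below 0.1 in at least 1 pair of each other region. The pairing in mPFC comes from this check alone and not from the labels.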

Additional observations from a re-analysis of the deposited data

Results flagged for a closer look

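In each set the library farthest from the others was tested by its gap to the nearest library over the whole range (Dixon's criterion at 95%), in 56 sets of 6 libraries: each gene in each of the 5 regions, and in the CRS and the naive libraries of LHb. It was met in 6 sets. Chance meets it in about 1 set in 20. In mPFC CRS 3, Cbln1 was at 10.6 FPKM against 1.80 to 2.94 in the other 5 libraries, and Cbln4 at 10.3 FPKM against 0.929 to 2.89. In vHippo CRS 2, Cbln2 was at 5.44 FPKM against 2.23 to 3.41, Cbln4 at 1.1 FPKM against 4.33 to 5.90, and Grid1 at 9.92 FPKM against 11.8 to 12.5. In vHippo naive 3, Nrxn3 was at 13.1 FPKM against 11.2 to 11.9. Both mPFC CRS 3 and vHippo CRS 2 also stood apart in marker sums, whose part in these values was not tested.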

How the results depend on the processing

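Of 217 counts of called genes among the 8 under alternatives of the 15 stress and FST comparisons, 216 were 0. The exception was LH without naive replicate 3, at 1 (Cbln4); leaving out single LH libraries gave counts from 0 to 1. Cbln4 in LH changed sign without the libraries that stood apart (−0.019, against 0.65). So did Cbln4 over the 5 regions (−0.069, against 0.23) and Cbln1 in mPFC (−0.28, against 0.92) and LH (−0.75, against 0.19). Other signs changed too, those of Cbln2 in NAc (0.35, against −0.56) and VTA (0.56, against −0.18) among them. In LH, where naive 3 was then the only naive library, so did those of Nrxn2 (−0.24, against 0.07), Nlgn1 (−0.17, against 0.12), Nlgn3 (−0.14, against 0.08) and Grid1 (−0.37, against 0.16). With the replicate block the count was 0 in each LHb and single-region comparison, so it changed no call. Of the 19 region calls, 92 of 95 values under alternatives other than leaving out a replicate number stayed called, and 3 did not, all of them of Nrxn2 in mPFC (no filter, limma, and without the libraries that stood apart). Leaving out the 10 libraries of each replicate number kept 36 of 57. The counts then ran from 2 to 3 in vHippo, 3 to 5 in VTA, 1 to 2 in NAc, 1 to 4 in mPFC and 3 to 5 in LH; fewer libraries are part of that setting. The share of all genes set beside the counts depends on the tool and libraries: for CRS against naive in LHb the 273 genes became 758 with DESeq2, 158 with limma, 115 with the length and GC offset, 2 without the 4 libraries with pancreas transcripts and 0 without the naive low FST libraries. For naive high against low FST the 715 became 1664 with DESeq2, 401 with limma and 138 without those 4. Counts scaled by TMM library size kept the order of the 5 regions for all 8 genes, and a pseudocount of 0.1 kept 19 of the 24 similar genes.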
